A study of Mus musculus with 19 samples.

Results

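The change in gene expression between postnatal day 3 (P3) and postnatal day 14 (P14) was compared between corticospinal motor neurons (CSMN) and callosal projection neurons (CPN) of the mouse cortex. The quantity examined for each gene was the CSMN change minus the CPN change, (CSMN P14 minus CSMN P3) minus (CPN P14 minus CPN P3), on the log2 scale. It is called the difference in change below, and a negative value means that the gene rose less, or fell more, in CSMN. The samples were chosen by their labels alone: 9 of the 19 arrays of the series, with 2 arrays of CPN at P3, 2 of CPN at P14, 3 of CSMN at P3 and 2 of CSMN at P14. The 4 arrays from both types at P6 and the 2 arrays of corticotectal projection neurons (CTPN) at P14 entered the same model and are given for reference. The 4 arrays from embryonic day 18 were not used in this model, and entered an alternative fit with all 19 arrays. All mice were C57BL/6, and the labels name no transgene, deletion or drug. In every group the neurons had taken up green fluorescent microspheres at their axon endings, were isolated by fluorescence-activated cell sorting, and gave RNA that was amplified in 2 rounds and hybridised to Affymetrix Mouse Genome 430 2.0 arrays. CSMN and CPN came from sensorimotor cortex and CTPN from visual cortex, so type and area differ together for CTPN. The deposited description calls the replicates independent biological collections.

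CSMN are large pyramidal neurons of layer V whose axons run to the spinal cord, and they are the cortical cells that degenerate in amyotrophic lateral sclerosis. CPN are pyramidal neurons, many of them in the upper layers, whose axons cross the corpus callosum to the other hemisphere. In the interval studied, cortical axons reach and refine their targets, dendrites and synapses are added, and the channels and receptors of adult firing replace those of the young neuron.

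The labelled types were checked against their defining genes on each array. Bcl11b and Fezf2, transcription factors of subcerebral identity, were higher on every CSMN array than on every CPN array. Bcl11b lay between 11.35 and 12.62 in CSMN and between 8.40 and 10.46 in CPN, in log2 units. Cux2, an upper-layer factor, lay between 9.85 and 10.45 in CPN and between 6.63 and 9.23 in CSMN. Gad1, the enzyme that makes GABA in interneurons, read 7.90 to 9.72 in CPN. In CSMN it read 4.17, 4.47 and 6.70 at P3 and 7.70 and 7.77 at P14.

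Both CSMN P14 arrays stood apart from the other 7 arrays of the contrast, in different ways. Replicate 2 correlated with replicate 1 at only r = 0.904 across genes, and its median correlation with the other postnatal arrays was 0.875. The difference between the 3' and 5' control probe sets of Gapdh, a sign of RNA integrity, was 3.08 on replicate 2 and 1.73 to 2.64 on the other 8 arrays. Of the 9 arrays of the contrast, replicate 1 was highest for microglia markers. The mean log2 level of 19 such markers was 8.28 there, 7.11 on replicate 2 and 6.77 to 7.38 on the other 7 arrays. Outside the contrast, CSMN P6 replicate 2 was also high, at 8.08, and CSMN P6 replicate 1 was at 7.32. Because every difference in change rests on these 2 arrays, values are also given with each of them left out, and their part in the results was not tested further.

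**Figure D1:**
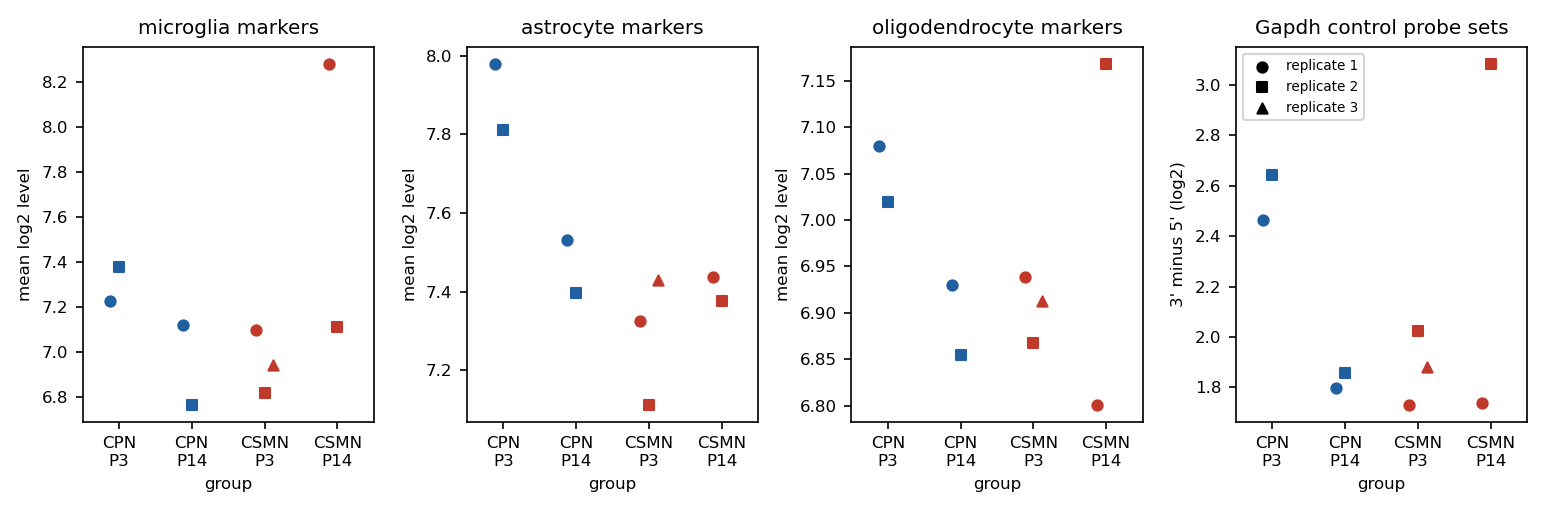
Mean log2 level of microglia, astrocyte and oligodendrocyte markers and the 3' minus 5' difference of the Gapdh control probe sets (vertical axes, log2) on each of the 9 arrays, by group (horizontal axis); each point is 1 array and its shape gives the replicate number. CSMN P14 replicate 1 lies highest for microglia markers (8.28) and CSMN P14 replicate 2 highest for the Gapdh difference (3.08).

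The maturation of the 2 types ran largely in the same direction. Of 18193 genes tested with limma at a Benjamini-Hochberg adjusted p under 0.05, 2457 changed between P3 and P14 in CSMN (13.5%): 907 rose (4.99%) and 1550 fell (8.52%). The excess of falls in CSMN depended on the normalization. After a further quantile normalization 1606 rose and 1729 fell, and after cyclic loess 1899 rose and 1544 fell. The list counts of rises and falls below are from the main fit alone. In CPN 1663 changed (9.14%), with 974 rising (5.35%) and 689 falling (3.79%). Of these, 935 were called in both types, and 931 moved the same way, 468 up and 463 down. That is 37.9% of the CSMN calls and 56.0% of the CPN calls. The 4 genes called in opposite directions were Frzb, Islr2, Lemd1 and Rian, which are named because the count is small. Across genes, which are not independent replicates, the changes in the 2 types correlated with r = 0.62. The values are levels of RNA in sorted populations, so fewer cells holding a transcript and less of it per cell cannot be told apart.

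The largest changes within a type show this common course. Sox11, a transcription factor of young neurons, read 12.97 and 13.04 in CPN at P3 and 7.82 and 7.84 at P14. In CSMN it read 12.82, 12.87 and 12.58 at P3 and 7.91 and 8.17 at P14. It fell in both, by 36.2-fold in CPN (-5.18 ± 0.18, standard error of the model here and below) and by 26.3-fold in CSMN (-4.72 ± 0.16), and its difference in change was 0.46 ± 0.24 (adjusted p = 0.498). Vcan, a matrix proteoglycan, fell in CSMN (-4.75) and in CPN (-4.35). Trim67 fell likewise (-4.68 and -5.01), as did Gprin2, which acts in neurite growth (-4.66 and -4.08). Fat4, an atypical cadherin, was among the 5 largest falls in CSMN (-4.34 ± 0.48) and B3gnt5, a glycosyltransferase, among those in CPN (-4.30 ± 0.61). Rasgrf1, a calcium-regulated exchange factor for Ras, rose 15.4-fold in CSMN (3.95 ± 0.30) and 27.8-fold in CPN (4.80 ± 0.32). Lamp5 rose by 3.68 ± 0.28 and 5.47 ± 0.31, Vxn by 3.80 ± 0.42 and 2.57 ± 0.46, and Syt17, a synaptotagmin, by 3.63 ± 0.28 and 2.82 ± 0.30. None of these 10 genes passed the test of the difference in change. Car10 was the strongest CPN rise after Lamp5 (5.0 ± 0.36, against 2.36 ± 0.33 in CSMN), with a difference of -2.63 ± 0.49 (adjusted p = 0.0797). Npnt also rose in CPN (4.28 ± 0.67), with 1.76 ± 0.61 in CSMN and a difference in change of -2.52 ± 0.91 (adjusted p = 0.426), which was -3.73 without CSMN P14 replicate 1 and -1.30 without replicate 2.

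The change differed between the types for 15 of the 18193 genes, or 0.0824%. CSMN changed less, or further down, than CPN for 12 of them (0.066%) and the other way for 3 (0.0165%). Without adjustment 1913 genes (10.5%) had a p under 0.05. In all 15, each CSMN array difference between P14 and P3 lay beyond every CPN array difference, which held for 3147 of all genes (17.3%). The median difference in change was -0.06 over all genes and -0.27 over genes above the median brightness. Leaving out CSMN P14 replicate 1 moved the latter to -0.61, and leaving out replicate 2 moved it to 0.02. Small list medians below are read beside these values.

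What most of the 15 genes shared was the side on which the change took place. CPN rose for 12 of them, fell for 1 and had no called change for 2. In CSMN 4 rose, 2 fell and 9 had no called change. The gap between the types had opposite signs at P3 and P14 for 12 of the 15, against 51.9% of all genes, but both gaps passed the test for 2 of them, Lin7b and Rhbdl3. These counts describe genes chosen by the same contrast.

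**Figure D2:**
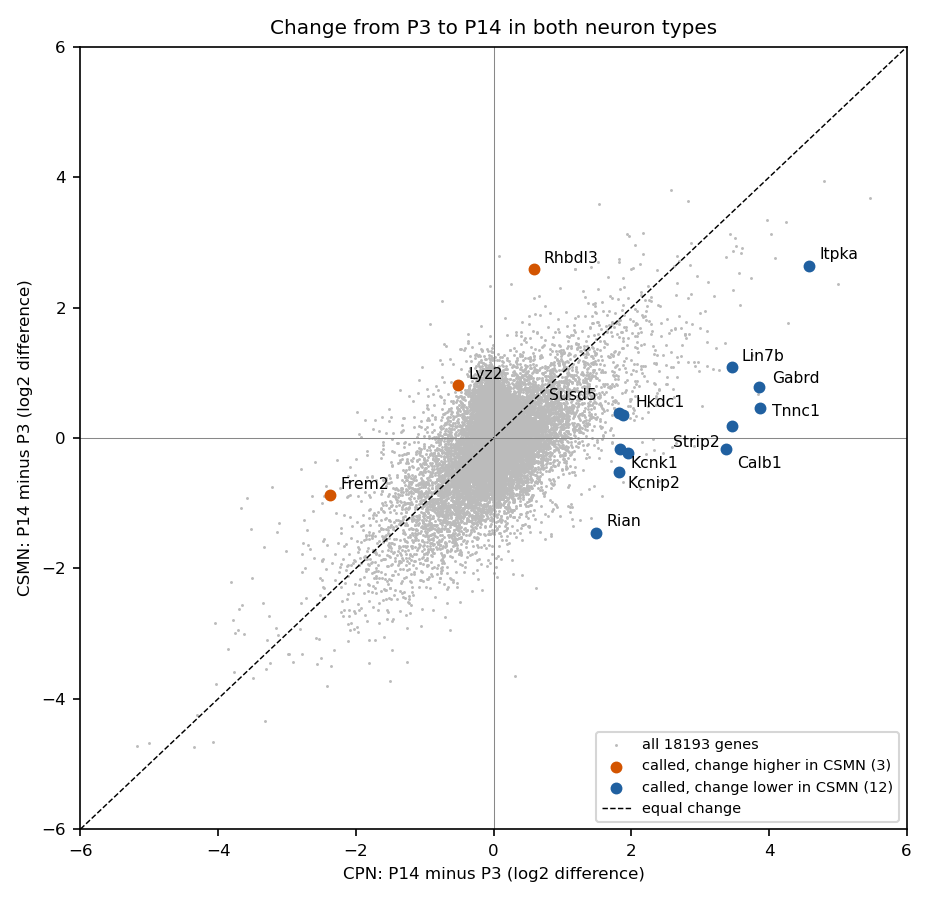
Change from P3 to P14 in CPN (horizontal axis) against CSMN (vertical axis), in log2 units, for 18193 genes, with the dashed line marking equal change. The 12 genes called lower lie below the line, mostly at high CPN change and CSMN change near 0, and the 3 called higher lie above it; the unlabelled blue point is a gene known by a clone number.

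Gabrd was the gene called from the list of GABA receptors, and Kcnip2 and Kcnk1 those from the list of potassium channels. Gabrd encodes the delta subunit of the GABA-A receptor, which serves tonic inhibition outside synapses. It read 5.70 and 5.46 in CPN at P3, 9.74 and 9.15 in CPN at P14, 7.42, 7.31 and 7.29 in CSMN at P3, and 8.71 and 7.54 in CSMN at P14. CPN thus began below all CSMN arrays and ended above them. Gabrd rose by 3.86 ± 0.31 in CPN (adjusted p = 2.04e-05), the CSMN value was 0.78 ± 0.28 (adjusted p = 0.0896), and the difference in change was -3.08 ± 0.42 (adjusted p = 0.0265). Kcnip2, an accessory subunit of A-type potassium channels, read 9.04 and 9.17 in CPN at P3 and 11.06 and 10.79 at P14. Its CSMN levels were 9.99, 9.60 and 9.59 at P3 and 9.01 and 9.42 at P14. It rose 3.53-fold in CPN (1.82 ± 0.23), with -0.52 ± 0.21 in CSMN, and the fold changes differed 5.05-fold (-2.34 ± 0.31, adjusted p = 0.0244). Every CSMN array lay above both CPN arrays at P3 and below both at P14. Kcnk1, a pore-forming subunit of background potassium channels, read 8.92 and 8.96 in CPN at P3 and 10.73 and 10.81 at P14, and 9.14, 8.80, 8.56, 8.87 and 8.46 on the 5 CSMN arrays in the same order of stages. The types overlapped at P3 and lay far apart at P14. Kcnk1 rose 3.57-fold in CPN (1.83 ± 0.21) against -0.17 ± 0.19 in CSMN, a difference in change of -2.00 ± 0.28 (adjusted p = 0.0269).

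From the list of calcium channel and calcium-binding genes, Calb1 was called. Calb1 encodes calbindin, a calcium buffer found in upper-layer pyramidal neurons and some interneurons. Its levels were 8.58 and 8.17 in CPN at P3, 11.99 and 11.51 in CPN at P14, 9.31, 9.61 and 9.27 in CSMN at P3 and 8.97 and 9.48 in CSMN at P14. It rose 10.4-fold in CPN (3.38 ± 0.26, adjusted p = 1.62e-05), and the CSMN value was -0.17 ± 0.24 (adjusted p = 0.649). The difference in change, -3.55 ± 0.35 (95% interval -4.32 to -2.78, adjusted p = 0.00314), was the largest of the 15 and amounts to an 11.7-fold difference between the fold changes. Because calbindin is also an interneuron gene, the interneuron markers are given beside it. The mean level of 16 such markers was 7.55 to 7.56 in CPN at P3 and 7.82 to 8.17 at P14, and 6.62 to 7.19 in CSMN at P3 and 7.49 to 7.83 at P14. The list's mean was higher at P14 than at P3 in both types. Its median difference in change was 0.30, and 0.55 and 0.11 without CSMN P14 replicate 1 and replicate 2. The part of interneurons in the Calb1 value was not tested.

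Itpka, a kinase that phosphorylates inositol trisphosphate and bundles actin in dendritic spines, rose in both types but more in CPN. It read 6.27 and 6.46 in CPN at P3 and 11.00 and 10.89 at P14, and 8.25, 7.68 and 8.08 in CSMN at P3 and 10.84 and 10.46 at P14. CPN began below and reached the same range at P14, slightly above CSMN. The rises were 4.58 ± 0.22 and 2.65 ± 0.20, and the difference in change was -1.94 ± 0.30 (adjusted p = 0.0477).

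Tnnc1 and Strip2 moved alike and were the nearest to an on-off pattern. Tnnc1 encodes the troponin C of heart and slow muscle, the calcium sensor of the thin filament. Its levels were 5.47 and 5.51 in CPN at P3 and 9.51 and 9.21 at P14, and 6.08, 5.47, 5.41, 5.70 and 6.55 on the CSMN arrays from P3 to P14. Strip2, a component of striatin-interacting phosphatase and kinase complexes, read 3.77 and 3.68 in CPN at P3 and 7.25 and 7.12 at P14, and 3.83, 3.78, 3.98, 4.34 and 3.76 in CSMN in the same order. For both genes the CPN P14 arrays alone lay above 6.62, the highest median of any array, so no fold is given. Tnnc1 rose by 3.87 ± 0.28 in CPN, with 0.47 ± 0.25 in CSMN, and its difference in change was -3.40 ± 0.38 (adjusted p = 0.00539). For Strip2 these values were 3.46 ± 0.23, 0.18 ± 0.21 and -3.28 ± 0.31 (adjusted p = 0.00314).

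The 250 bases before the start of these 2 genes are printed from the RefSeq promoter table of build GRCm38.p6, 5′ to 3′ on the plus strand. They were picked as the 2 named genes called with the largest absolute difference in change that had an entry. Calb1 had none. The Tnnc1 window is chr14:31208062-31208311 and the Strip2 window chr6:29916763-29917012. Capitals mark CAGATG, an E-box bound by NeuroD factors, which was searched on both strands.
Tnnc1: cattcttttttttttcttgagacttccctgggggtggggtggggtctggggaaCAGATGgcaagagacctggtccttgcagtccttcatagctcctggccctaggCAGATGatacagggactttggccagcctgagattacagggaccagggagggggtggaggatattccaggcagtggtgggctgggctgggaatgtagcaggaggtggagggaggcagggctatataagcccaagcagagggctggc
Strip2: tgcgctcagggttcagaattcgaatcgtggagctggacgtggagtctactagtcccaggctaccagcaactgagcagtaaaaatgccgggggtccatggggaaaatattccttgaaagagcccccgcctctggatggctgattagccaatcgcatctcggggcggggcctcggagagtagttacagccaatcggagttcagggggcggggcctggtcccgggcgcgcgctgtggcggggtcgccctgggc
The Tnnc1 window holds 2 CAGATG matches and the Strip2 window 0, while 14.4% of 32536 such windows hold at least 1. The TATA box (letters: TATAAA; 12.3% of windows), the cyclic AMP response element (TGACGTCA, 1.56%), the AP-1 site (TGACTCA, 4.45%) and the EGR site (GCGNGGGCG, 4.74%), searched on both strands, had 0 matches in either window. Only these exact letters were searched, so near forms, such as tatataag near the end of the Tnnc1 window, were not counted. None of these motifs contains another. A match here is a description of the letters, and 11 of the 14 named genes had an entry in the table.

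Among the remaining genes called lower, Lin7b, a PDZ scaffold of synapses and cell junctions, rose in both types. It read 8.61 and 8.80 in CPN at P3 and 12.17 and 12.14 at P14, and 10.32, 10.20 and 10.22 in CSMN at P3 and 11.30 and 11.37 at P14. CPN passed from the lower to the higher type with no overlap at either age. The rise was 11.0-fold in CPN (3.46 ± 0.18) and 2.13-fold in CSMN (1.09 ± 0.16), and the difference in change was -2.36 ± 0.24 (adjusted p = 0.00314). Its 3 other probe sets gave -1.66, -1.56 and -2.60.

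Hkdc1, a hexokinase-domain enzyme, and Susd5, a sushi-domain protein, rose in CPN, while their CSMN change did not pass the test. Hkdc1 read 7.57 and 7.51 in CPN at P3, 9.36 and 9.49 at P14, and 7.35 to 8.02 over the 5 CSMN arrays. Susd5 read 7.89 and 7.98, then 9.81 and 9.72 in CPN, and 7.43 to 7.96 over the CSMN arrays. In both, the CPN P14 arrays lay above all others. The CPN rises were 1.88 ± 0.18 and 1.83 ± 0.17, and the CSMN values 0.35 ± 0.16 and 0.39 ± 0.15. The differences in change were -1.53 ± 0.24 and -1.44 ± 0.23 (adjusted p = 0.0477 for each).

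Rian was called in opposite directions. It is a maternally expressed, imprinted noncoding RNA of mouse chromosome 12 that hosts small nucleolar RNAs. The probe set used read 7.83 and 7.78 in CPN at P3 and 9.30 and 9.29 at P14, and 9.18, 9.93 and 10.13 in CSMN at P3 and 8.75 and 7.85 at P14. It rose 2.80-fold in CPN (1.49 ± 0.32, adjusted p = 0.013) and fell 2.73-fold in CSMN (-1.45 ± 0.29, adjusted p = 0.00759), with a difference of -2.94 ± 0.44 (adjusted p = 0.0403). The 3 other probe sets for Rian gave 0.04, -0.85 and 0.01, so the result belongs to 1 of 4 probe sets. The last of the 12, C030013G03Rik, is known by a clone number and had a difference in change of -2.18.

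The 3 genes whose change was higher in CSMN differed in direction. Rhbdl3, a rhomboid-like membrane protein, read 6.65 and 6.55 in CPN at P3 and 7.11 and 7.24 at P14, and 5.64, 5.92 and 5.91 in CSMN at P3 and 8.36 and 8.47 at P14. CSMN lay below CPN at P3 and above it at P14, with no overlap. Rhbdl3 rose by 2.59 ± 0.16 in CSMN (adjusted p = 4.74e-06), with 0.58 ± 0.17 in CPN (adjusted p = 0.0615), and the difference in change was 2.01 ± 0.24 (adjusted p = 0.00802). Frem2, a basement membrane protein, fell in both types. It read 7.74 and 7.93 in CPN at P3 and 5.55 and 5.36 at P14, and 6.81, 6.93 and 6.81 in CSMN at P3 and 5.85 and 6.12 at P14. CPN fell from above CSMN to below it (-2.38 ± 0.17 against -0.87 ± 0.16, difference 1.51 ± 0.23, adjusted p = 0.0477). All P14 arrays lay below the array medians, where background limits the size of a fall.

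Lyz2, the lysozyme of macrophages and microglia, is no neuronal gene. It read 7.54 and 7.57 in CPN at P3, 7.07 and 7.02 at P14, 7.02, 7.05 and 7.26 in CSMN at P3, and 7.88 and 7.96 at P14. It rose 1.75-fold in CSMN (0.81 ± 0.14), with -0.51 ± 0.15 in CPN, and the difference in change was 1.32 ± 0.21 (adjusted p = 0.0477). On the same CSMN P14 arrays the mean of the microglia markers was 8.28 and 7.11. Most single markers read higher on replicate 1, as C1qc did (9.75 and 6.17). The exceptions were Laptm5 (8.30 and 8.77), Trem2 (7.19 and 7.70), Itgam (5.44 and 5.78) and Cd53 (7.25 and 7.27). The part of microglial RNA in the Lyz2 value was not tested. Lyz1, its close paralog, to which probes may cross-hybridise, read 6.59 and 7.56 on these arrays and did not pass (2.66 ± 0.45, adjusted p = 0.0634). The other genes with the smallest p in this direction that did not pass were Pth1r, the parathyroid hormone receptor (1.65 ± 0.27, adjusted p = 0.0584), and Cav1, the main protein of caveolae (2.66 ± 0.44, adjusted p = 0.0634). Both differences came with a fall in CPN: Cav1 read 11.00 and 10.86 in CPN at P3 and 7.37 and 7.33 at P14, and Pth1r 8.46 and 8.28, then 6.87 and 6.74. The CSMN arrays for Cav1 read 7.05, 7.83 and 8.21, then 7.01 and 6.53.

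**Figure D3:**
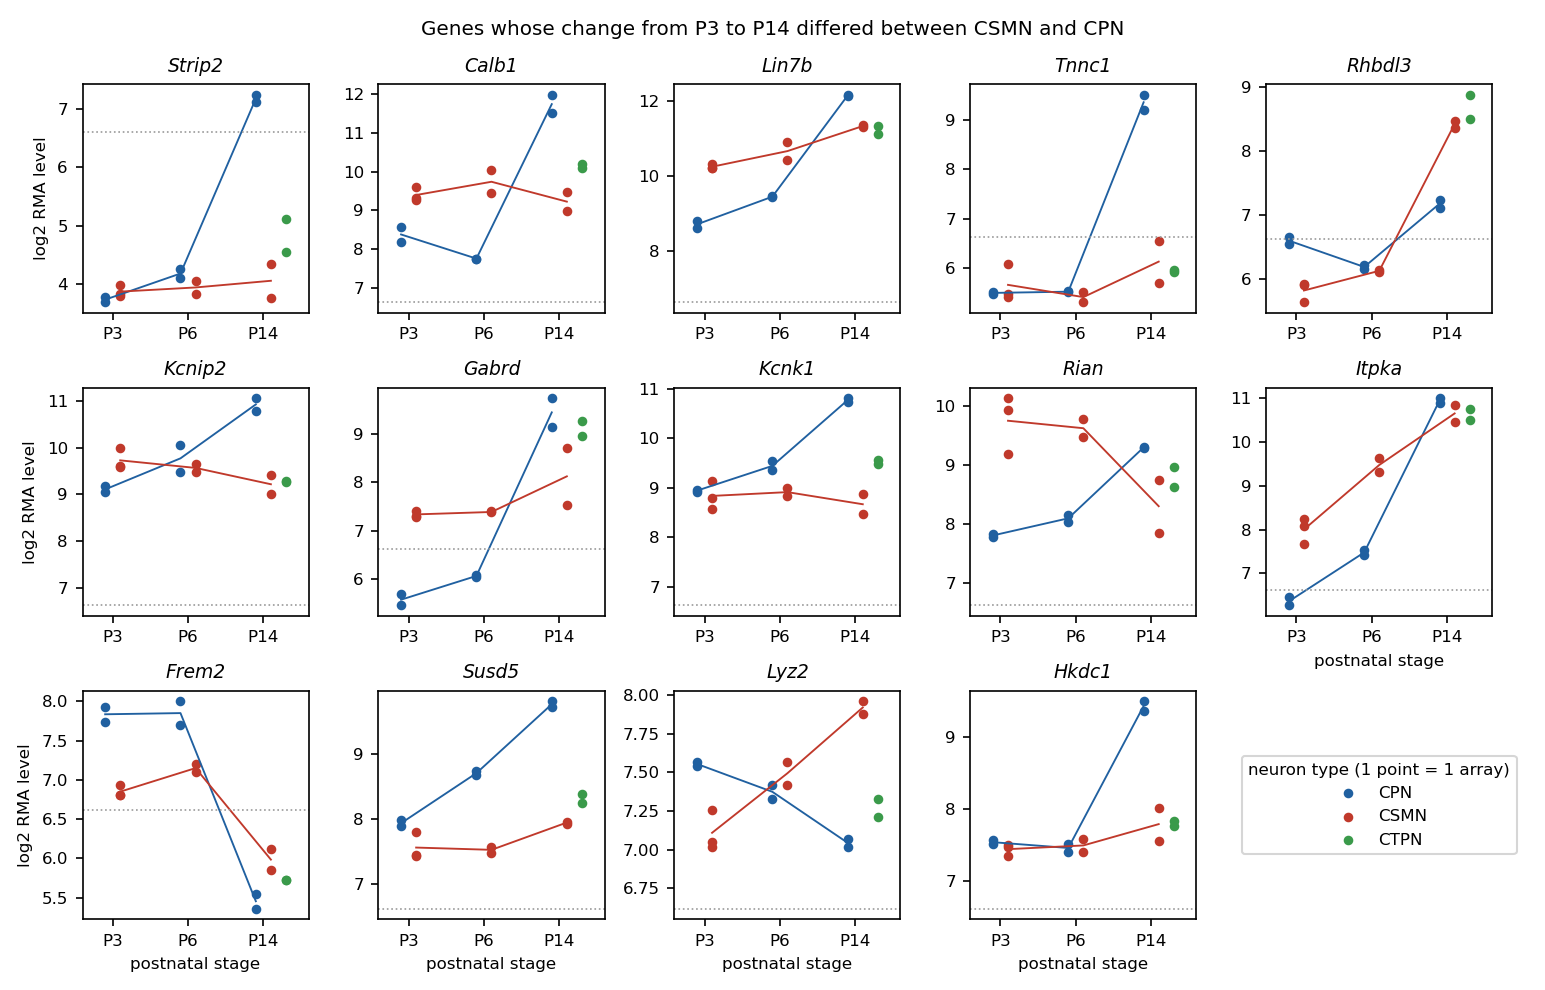
Log2 level on every postnatal array (vertical axes) by stage (horizontal axis) for the 14 named genes called, with 1 point per array, lines joining group means and the dotted line at 6.62, the highest array median. Most panels show CPN (blue) rising between P6 and P14, as for Calb1 from 7.75 at P6 to 11.99 and 11.51 at P14, while CSMN (red) changes less in most; CTPN (green) has P14 arrays alone.

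The P6 arrays do not enter the difference in change. The gap between the types moved further from P6 to P14, the longer interval, than from P3 to P6 for 14 of the 15 genes, all but Susd5, and for 73.8% of all genes tested. For 12 of the 15 genes, and 46.4% of all genes, the gap at P6 lay between the P3 and P14 gaps. Because the genes were chosen by their P3 and P14 gaps, these counts are a description and give no timing. Strip2 read 4.26 and 4.09 in CPN at P6 and Tnnc1 5.51 and 5.52, near their P3 levels of 3.77 and 3.68, and 5.47 and 5.51. Their CSMN minus CPN gaps went from 0.14 at P3 through -0.24 at P6 to -3.14 at P14 for Strip2, and from 0.16 through -0.11 to -3.24 for Tnnc1. Calb1 was an exception, since CPN read 7.75 on both P6 arrays, below P3, and the gap widened to 1.99 before it reached -2.52 at P14. The other exceptions were Itpka, whose gap was 1.64 at P3, 2.00 at P6 and -0.30 at P14, and Hkdc1, with -0.10, 0.04 and -1.63. Susd5, the exception, had CPN at 8.67 and 8.74 at P6, above the CSMN levels of 7.57 and 7.48.

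CTPN, sampled at P14 alone, lay nearer CSMN than CPN for 12 of the 15 genes. The share over all genes was not computed, so this count has no background beside it. Tnnc1 read 5.91 and 5.96 in CTPN and Strip2 5.12 and 4.55, far below CPN. Rhbdl3 read 8.50 and 8.87, as high as in CSMN. The 3 genes for which CTPN lay nearer CPN were Gabrd (9.26 and 8.95), Rian (8.97 and 8.63) and Lyz2 (7.33 and 7.21), and Rian lay almost midway between the CPN and CSMN means of 9.29 and 8.30. These CTPN values share the CSMN and CPN P14 arrays with the contrast that chose the genes, and they are a description.

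Genes that define the 2 types did not pass the test of the difference in change. Bcl11b fell in both, by 1.12 ± 0.30 in CSMN and 1.60 ± 0.33 in CPN, and its difference in change was 0.48 ± 0.45. The difference in change was -0.06 ± 0.38 for Fezf2, -0.57 ± 0.55 for Crym, a thyroid hormone binding protein, and -0.47 ± 0.58 for Npr3, a natriuretic peptide receptor. It was -0.25 ± 0.33 for the cofactor Lmo4 and -1.15 ± 0.93 for Cux2, whose CSMN P3 arrays spread from 6.85 to 9.23. None of the 6 passed the test, with adjusted p from 0.595 to 0.953, and the 95% intervals still allow differences of -0.89 to 0.78 for Fezf2 and -3.18 to 0.88 for Cux2. Over all genes, 4.99% rose and 8.52% fell in CSMN, 5.35% rose and 3.79% fell in CPN, and 0.0824% passed the test of the difference. In a fit of the 9096 genes above the median brightness, 623 rose and 1454 fell in CSMN, and 777 rose and 599 fell in CPN. The counts of list members here and below are read beside these values. Of 24 measured subcerebral and layer V genes, 4 rose and 7 fell in CSMN, 5 rose and 2 fell in CPN, and 0 passed the test of the difference. The largest estimates were Ermn (-3.96 ± 0.70, adjusted p = 0.0768) and Ankrd34b (-2.33 ± 0.41, adjusted p = 0.0741). Ermn, a cytoskeletal protein otherwise known from oligodendrocytes, fell in CSMN from 10.04, 10.45 and 9.30 to 7.32 and 5.24, while CPN stayed between 4.13 and 4.57. Ankrd34b rose in CPN from 4.99 and 5.21 to 7.57 and 7.26 and remained between 8.74 and 9.83 in CSMN. Among 31 callosal and upper-layer genes, 2 rose and 8 fell in each type and 0 passed the test of the difference. The largest estimates were Gpr6, a constitutively active receptor (-3.16 ± 0.53, adjusted p = 0.0634), and Rorb, a nuclear receptor of layer IV (-2.17 ± 0.53, adjusted p = 0.17). Gpr6 rose in CPN from 5.42 and 5.22 to 9.44 and 8.87 and lay between 4.30 and 6.05 in CSMN.

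Neurofilament genes, which build up in maturing long axons, rose in CSMN, and Nefh and Nefl also rose in CPN. Nefh, the heavy neurofilament subunit, read 7.36, 7.60 and 8.11 in CSMN at P3 and 11.56 and 10.99 at P14, and 6.54 and 6.76, then 8.14 and 8.23 in CPN. It rose by 3.58 ± 0.32 in CSMN and 1.53 ± 0.35 in CPN, and the difference in change, 2.05 ± 0.47, did not pass (adjusted p = 0.141). The medium subunit Nefm rose 2.93-fold in CSMN (1.55 ± 0.23), with 0.86 ± 0.25 in CPN, and the light subunit Nefl rose 2.07-fold in CSMN and 2.71-fold in CPN. Their differences in change were 0.69 ± 0.34 and -0.39 ± 0.35. Of 17 neurofilament and stable cytoskeleton genes, 5 rose and 3 fell in CSMN and 4 rose and 3 fell in CPN. Of 26 growth cone and young-axon genes, 8 fell in CSMN and 14 in CPN, none rose, and the median change was -0.47 in CSMN and -0.86 in CPN. Over all genes 8.52% fell in CSMN and 3.79% in CPN. Map1b, a microtubule protein of growing axons, fell 4.51-fold in CPN (-2.17 ± 0.42), with -0.66 ± 0.38 in CSMN and a difference of 1.51 ± 0.57 (adjusted p = 0.434). The other probe sets for Map1b gave differences of the opposite sign, -0.98 and -0.52. Dpysl3, a collapsin response mediator, fell in both (-1.61 ± 0.44 and -2.76 ± 0.48), but the CSMN P14 arrays read 12.84 and 10.64, so its difference of 1.16 ± 0.66 was 0.06 without replicate 1 and 2.26 without replicate 2. Of 39 guidance genes 4 rose and 5 fell in CSMN and 2 rose and 5 fell in CPN. The largest estimates were Ephb1 (-1.49 ± 0.35, adjusted p = 0.162) and the netrin receptor Unc5c (1.45 ± 0.33, adjusted p = 0.137), which fell 2.78-fold in CPN. Of 19 transport motor genes 1 fell in CSMN, and 1 rose and 1 fell in CPN. No gene of these 4 axonal lists passed the test of the difference in change.

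**Figure D4:**
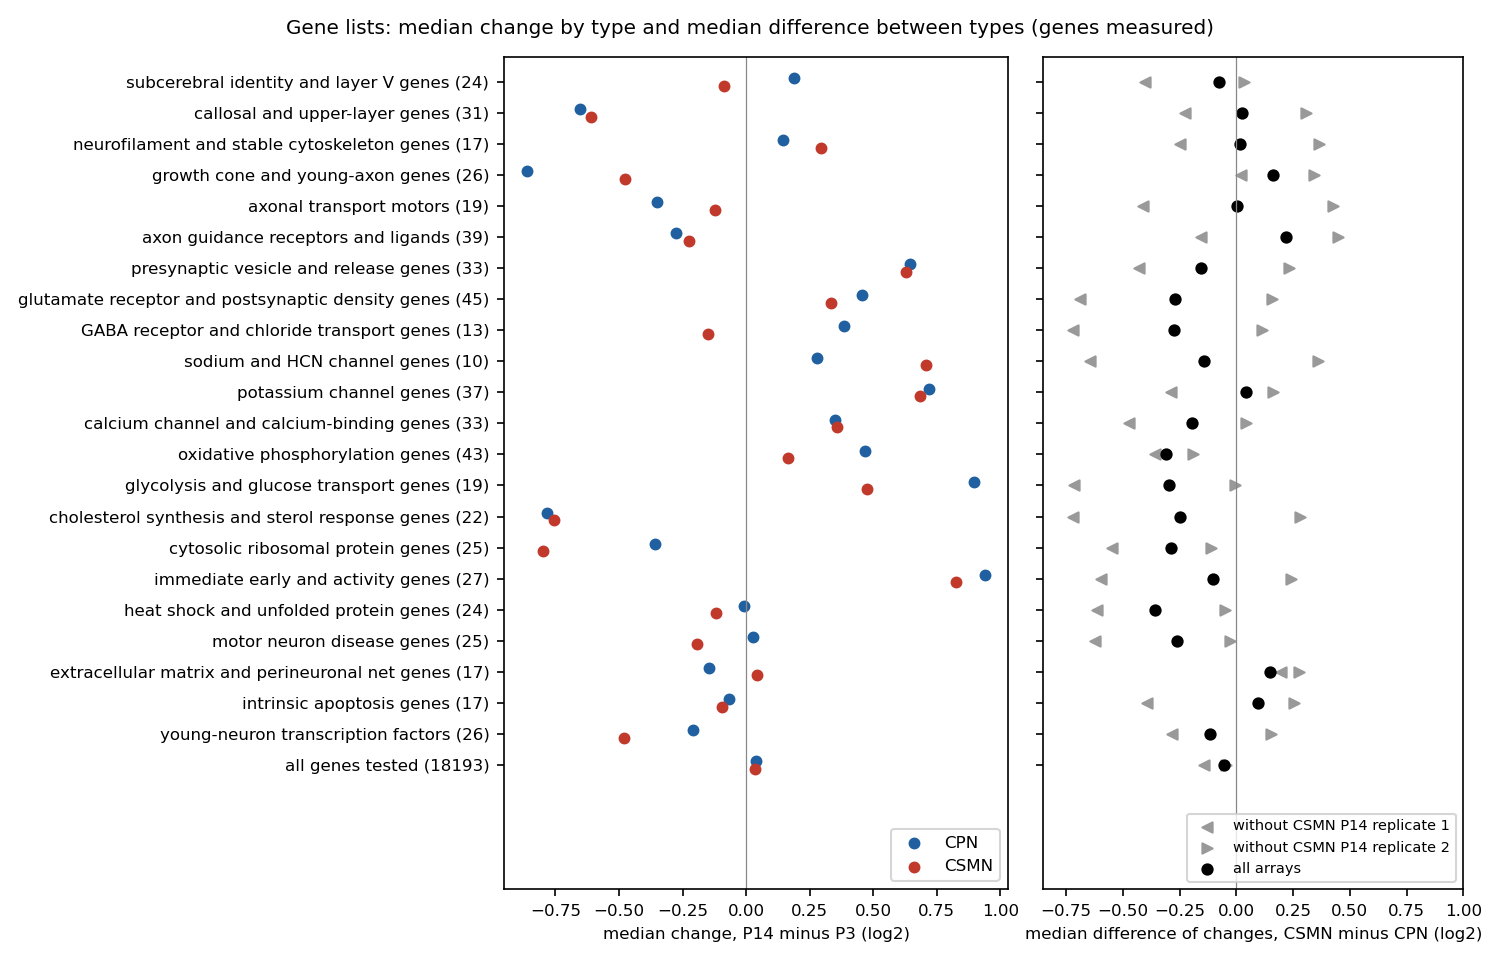
Left, median change from P3 to P14 (log2) in CPN (blue) and CSMN (red) for 22 gene lists and for all genes, with the number of genes measured; right, the median difference in change (black) and the same without each CSMN P14 array (grey triangles). Most grey pairs straddle 0, as for axonal transport motors (-0.41 and 0.43), and oxidative phosphorylation genes stay below it (-0.36 and -0.19).

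More synaptic genes rose than fell in both types. Over all genes 4.99% rose and 8.52% fell in CSMN, and 5.35% rose and 3.79% fell in CPN. Of 33 presynaptic vesicle and release genes, 12 rose and 2 fell in CSMN and likewise in CPN, with medians of 0.63 and 0.64. Among 45 genes for glutamate receptors and the postsynaptic density, 13 rose and 3 fell in CSMN and 11 rose and 1 fell in CPN (medians 0.33 and 0.46). Neither list held a gene past the test of the difference. The CSMN P14 arrays split for some large estimates: the kainate receptor Grik3 read 9.06 and 5.47 there, and its difference in change of -2.51 ± 1.22 was -4.30 without replicate 1 and -0.72 without replicate 2. Of 13 genes of GABA receptors and chloride transport, 3 rose and 1 fell in CSMN, 4 rose and 0 fell in CPN, and Gabrd was the 1 gene called for the difference. Below it, Gphn, the scaffold of inhibitory synapses, was at -0.94 ± 0.49 and Gabra3 at -0.93 ± 0.54 (adjusted p = 0.494 and 0.51). Without replicate 1 they were at -1.62 and -1.72, and without replicate 2 at -0.27 and -0.15.

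Channel genes also rose more often than they fell. The shares over all genes were 4.99% rising and 8.52% falling in CSMN, and 5.35% and 3.79% in CPN. Of 37 potassium channel genes, 15 rose and 1 fell in CSMN and 16 rose and 0 fell in CPN (medians 0.69 and 0.72), and Kcnip2 and Kcnk1 were the 2 called for the difference. Of 10 sodium and HCN channel genes, 5 rose and 2 fell in CSMN and 3 rose in CPN. Scn1a, a sodium channel subunit, rose 4.30-fold in CSMN (2.11 ± 0.55), with -0.76 ± 0.60 in CPN and a difference of 2.86 ± 0.82 (adjusted p = 0.279). Its other probe sets gave smaller differences, 1.14 and 0.72. The auxiliary subunit Scn2b rose 3.11-fold in CSMN and 8.61-fold in CPN (difference -1.47 ± 0.32, adjusted p = 0.12). Of 33 calcium channel and calcium-binding genes, 8 rose and 1 fell in CSMN and 11 rose and 1 fell in CPN, and Calb1 was called for the difference. Cacna2d3, an accessory subunit, was next in this direction (-1.41 ± 0.38, adjusted p = 0.24) and the T-type channel Cacna1h lay opposite (1.49 ± 0.59, adjusted p = 0.452). Without CSMN P14 replicate 1 and replicate 2 Cacna2d3 was at -1.95 and -0.87, and Cacna1h at 0.70 and 2.29.

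The 3 metabolic lists and the ribosomal proteins had median differences in change from -0.31 to -0.25. Without CSMN P14 replicate 1 and replicate 2 these were -0.71 and -0.01 for glycolysis, -0.72 and 0.28 for cholesterol synthesis and -0.55 and -0.11 for ribosomal proteins. Of 43 oxidative phosphorylation genes, 1 rose in CSMN and 4 in CPN, with median changes of 0.17 and 0.47. The estimate of the difference was below 0 for 42 of the 43, and for 9868 of all 18193 genes. The list's median of -0.31 was -0.36 without CSMN P14 replicate 1 and -0.19 without replicate 2. No gene of the list passed the test, with Ndufs4 (-0.89 ± 0.40) and Ndufa8 (-0.59 ± 0.28) the largest estimates among those with the list's sign (adjusted p = 0.472 and 0.482). The median over all genes above the median brightness was -0.27. Of 19 glycolysis and glucose transport genes, 4 rose and 1 fell in CSMN and 7 rose in CPN, with medians of 0.47 and 0.90. Of 22 cholesterol synthesis genes, 8 fell in CSMN, and 1 rose and 5 fell in CPN. Of 25 cytosolic ribosomal protein genes, 14 fell in CSMN and 6 in CPN, with medians of -0.80 and -0.36. The falling shares over all genes were 8.52% in CSMN and 3.79% in CPN. Rpl14 fell in CSMN from 8.05, 7.90 and 7.70 to 6.59 and 6.22, and its difference in change was -1.43 ± 0.38 (adjusted p = 0.229). No gene of these 4 lists passed the test of the difference.

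The remaining lists held no gene past the test of the difference either. Their counts stand beside 4.99% of all genes rising and 8.52% falling in CSMN, and 5.35% and 3.79% in CPN. Of 27 immediate early genes, 11 rose and 1 fell in CSMN and 11 rose and 2 fell in CPN. Egr2, a transcription factor induced by activity, rose in CPN (2.66 ± 0.52), with -0.08 ± 0.47 in CSMN and a difference of -2.73 ± 0.70 (adjusted p = 0.207). Nr4a2 fell in CPN from 10.50 and 9.91 to 6.95 and 7.04. Of 26 young-neuron transcription factors, 1 rose and 10 fell in CSMN and 1 rose and 8 fell in CPN. Nfia fell 2.63-fold in CPN (-1.39 ± 0.21), with -0.08 ± 0.19 in CSMN and a difference of 1.31 ± 0.28 (adjusted p = 0.117). Of 25 motor neuron disease genes, 1 rose and 4 fell in CSMN, and 2 rose and 2 fell in CPN. Tardbp, which encodes the RNA-binding protein that aggregates in amyotrophic lateral sclerosis, fell 4.46-fold in CSMN (-2.16 ± 0.41), where the P14 arrays read 9.12 and 7.53, with a difference of -1.20 ± 0.61 (adjusted p = 0.493) that was -1.99 without replicate 1 and -0.40 without replicate 2. Of 24 heat shock and unfolded protein genes 5 fell in CSMN, and 1 rose and 1 fell in CPN. Of 17 extracellular matrix genes 1 rose and 3 fell in CSMN, and 1 rose and 4 fell in CPN. Of 17 intrinsic apoptosis genes 1 rose and 3 fell in CSMN and 3 fell in CPN.

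Markers of other cells moved with the contrast as well. Of 19 microglia markers 18 had a positive difference in change, as did 8325 of all 18193 genes. The list's median was 1.16, the largest of all lists, although no marker passed the test. The list's median was 0.65 without CSMN P14 replicate 1 and 1.58 without replicate 2. C1qa, a complement component, read 9.73 and 7.10 on the CSMN P14 arrays, and Csf1r, the receptor on which microglia depend, 11.33 and 9.13. On these arrays 17 and 13 of the 19 markers lay above 6.62, against 7 to 14 on the other 7 arrays of the contrast. On each CSMN P6 array, outside the contrast, 15 did. The median for 19 astrocyte markers was 0.55 (0.51 and 0.68 without replicate 1 and 2). Of these markers 2 rose and 5 fell in CPN, as Slc1a3 did from 9.78 and 9.64 to 7.12 and 7.01, and 2 rose and 0 fell in CSMN. Progenitor and cell cycle markers had a median of 0.45 (0.53 and 0.22), with 6 of 24 falling in CPN and 2 in CSMN and none rising. Layer VI and subplate markers had a median of 0.30 (0.38 and 0.25). Other medians turned sign with 1 array: 0.40 for oligodendrocyte precursor markers was 0.64 without replicate 1 and -0.02 without replicate 2, 0.29 for endothelial and mural markers was 0.60 and -0.01, and 0.05 for oligodendrocyte markers was 0.42 and -0.06. The part of these cells in the differences above was not tested.

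**Figure D5:**
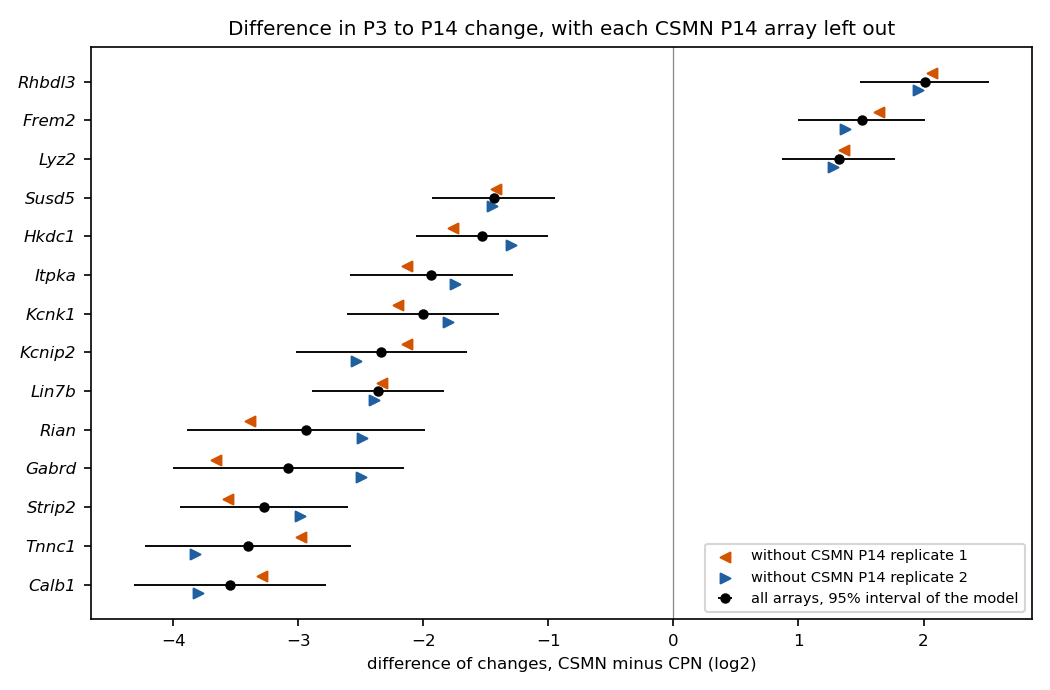
Difference in change, CSMN minus CPN (horizontal axis, log2), for the 14 named genes called, with the model's 95% interval (black) and the estimate without CSMN P14 replicate 1 (orange) or replicate 2 (blue). Every estimate keeps its sign without either array, from -3.80 for Calb1 to 1.28 for Lyz2 without replicate 2.

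Each of the 15 genes kept its sign under each alternative run. All 15 also passed the test without either CSMN P14 array, but those fits hold 1 CSMN P14 array, which is assumed to vary like the other groups, and take the most discordant pair out of the estimate of spread, so passing there does not show stability. Leaving out an array of the other groups often ended the call. Calb1 and Strip2 passed in all 9 cases (adjusted p up to 0.0397). Lin7b missed the threshold without CPN P3 replicate 1 (adjusted p = 0.0507), and Tnnc1 without either CPN P3 array or CPN P14 replicate 1 (up to 0.0717). Rhbdl3 missed it without any of the 4 CPN arrays (up to 0.102). Kcnip2 and Kcnk1 missed it without any CPN array or CSMN P3 replicate 1 or 2, Itpka without any CPN array or CSMN P3 replicate 1 or 3, and Rian without any CPN array or CSMN P3 replicate 2 or 3 (up to 0.29 in these 4). Gabrd, Hkdc1, Susd5, Frem2 and Lyz2 missed it without any array of CPN or of CSMN P3 (up to 0.317 for Susd5). Averaging all probe sets of a gene moved Kcnip2 to -0.70, Gabrd to -1.40, Rian to -0.93, Hkdc1 to -0.54 and Rhbdl3 to 1.32, none of them past the test. Of the 16 other probe sets of the named genes called, 10 had the same sign, and 5 of the 7 that were above the array medians did. For all named genes, called or not, these counts were 83 of 117 and 43 of 57.

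Genes that were named but not called moved with the CSMN P14 arrays as well. Of 80 such genes, the difference in change moved by over 1.5 times for 36 when either array was left out, 8 of them with a turn of sign, and 45 passed without replicate 1 and 9 without replicate 2. The number of genes called also depended on single arrays. It was 2 to 8 when an array of CPN or of CSMN P3 was left out, 86 without CSMN P14 replicate 2 (57 higher and 29 lower) and 6877 without CSMN P14 replicate 1 (3207 higher and 3670 lower). A further normalization by cyclic loess gave 33 genes, 14 higher and 19 lower, against 3 and 12, and weighting the arrays gave 0 genes, with 1073 at an unadjusted p under 0.05.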

How the data were processed

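Expression was measured on 19 arrays of sorted mouse cortical neurons, and 9 of them form the contrast. The authors deposited 1 log2 value for each probe set and array, computed with RMA per the submitters' processing notes (version not given in the sources used here). These values, between 3.17 and 14.4, entered the model unaltered, and 0 columns were left out. Array medians lay between 6.42 and 6.62, there are no detection calls, and precision is limited by how few arrays there are.

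The array has 45101 probe sets: 34945 with a single gene symbol, 932 with several, 9160 without one and 64 controls. Each of 18193 genes was measured by the single-symbol probe set with the highest mean over the 15 postnatal arrays. Symbols were checked through RefSeq for 34741 probe sets, and 0 changed. The limma fit gave each of 7 groups its own mean over the 15 postnatal arrays (residual degrees of freedom 8, prior 3.87). Moderated two-sided tests were used with Benjamini-Hochberg adjustment over all genes at 0.05. The model was tested on simulated data. Folds are given only where all 9 arrays lay above 6.62.

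In all, 31 lists with 785 genes (710 measured) were described by counts and medians. The members, lists and naming rule were chosen with earlier results of these data known. The rule names up to 12 genes called in each direction (or the 6 with the smallest p), the 5 largest rises and falls of each type, up to 4 called or 2 uncalled members of each list, and Bcl11b, Fezf2, Crym, Lmo4, Cux2, Npr3 and the neurofilament genes, and passes over clone numbers. Not all named genes are described above. None of those left out passed the test of the difference in change, but some had large estimates. Examples are Ntsr1 (1.93 ± 0.44), Top2a (1.87 ± 0.41) and Pfkl (-1.75 ± 0.55). The alternatives were other sets of arrays, quantile and cyclic loess normalization, a brightness filter, other probe set choices, an intensity trend, array weights, a minimum log2 difference of 1, a replicate block and leaving out each array. No pair of arrays was identical. The software was limma 3.58.1 in R 4.3.3, and pandas 2.3.3 and matplotlib 3.10.9 in Python 3.11.15.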

Additional observations from a re-analysis of the deposited data

Results flagged for a closer look

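The 2 neuron types differed in their change from P3 to P14, by the limma test of that difference, for 15 genes (adjusted p under 0.05). The 14 with a gene name are, with the CSMN change minus the CPN change on the log2 scale, Calb1 (-3.55), Tnnc1 (-3.40), Strip2 (-3.28), Gabrd (-3.08), Rian (-2.94), Lin7b (-2.36), Kcnip2 (-2.34), Kcnk1 (-2.00), Itpka (-1.94), Hkdc1 (-1.53) and Susd5 (-1.44), lower in CSMN, and Rhbdl3 (2.01), Frem2 (1.51) and Lyz2 (1.32), higher in CSMN. Groups held 2 or 3 arrays, too few to look gene by gene for a single array far from the others of its group. Across genes CSMN P14 replicate 2 stood apart and correlated with replicate 1 at r = 0.904. Its median correlation with the other postnatal arrays was 0.875, against 0.957 for replicate 1.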

How the results depend on the processing

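The interaction P3 to P14 had 15 calls. Within 1.5 times of this lay the counts with all 19 arrays, with mean probe sets, without cross-hybridising probe sets, with an intensity trend and with a minimum log2 difference of 1. It had 3 calls with the 9 arrays alone, 35 after quantile normalization, 33 after cyclic loess, 6 for genes above the median brightness, 0 with array weights and 7 with the replicate block, and 2 to 6877 with an array left out. The cause was not tested, but the spread is estimated from 8 residual degrees of freedom, and the 2 CSMN P14 arrays differ most from each other. Array weights put them at 0.107 each. Arrays in a group of 2 got equal weights, so the weights do not tell which of the 2 stands apart. The CSMN change P3 to P14 had 2457 calls, 36.9% of them higher, and 1542 with the 9 arrays alone, 100 with array weights, 1622 at a minimum log2 difference of 1 and 1308 to 9612 with an array left out. The share called higher was 48.2% after quantile normalization, 55.2% after cyclic loess and 67.5% without CSMN P14 replicate 2. The CPN change P3 to P14 had 1663 calls, and 5373 with array weights and 592 to 3123 with an array left out. Same-numbered arrays correlated in their deviations at r over 0.1 in 4 of 6 pairs of groups, up to 0.22, and at -0.01 in the rest. Whether same-numbered arrays share an effect was not tested, and the main fit took no account of the numbers. The replicate block gave 7 calls for the interaction, all among the 15, 2350 in CSMN and 1702 in CPN. The 7 were Calb1, Gabrd, Kcnk1, Lin7b, Rhbdl3, Strip2 and Tnnc1, and the other named genes called lost their call. Among single genes and list medians, 2156 values under an alternative stayed on their side of the threshold or within the spread, 124 lost a call, 71 gained one, 91 moved and 0 reversed a call. A brightness near the array medians limits what low genes can show.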

Other observations

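Of the probe sets with no single gene symbol (10092), 0 passed the test of the difference in change with limma, when 32 of all 45037 passed. Without CSMN P14 replicate 2, genes not called with all arrays included Pbx3, a homeobox cofactor (3.74, adjusted p = 0.00545, against 2.24 with all arrays), Hrh3, a histamine receptor (2.35, adjusted p = 0.00251, against 1.51) and Scn4b, a sodium channel subunit (1.73, adjusted p = 0.011, against 1.22). They were chosen after their values were seen.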
